A study of Mus musculus with 2 samples.

Results

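Long non-coding RNAs (lncRNAs) are transcripts longer than small RNAs that are not known to be translated, and many are present at few copies. The well-expressed ones described here are the rows that the deposited annotation types as lncRNA and that had at least 500 read counts in either library. They number 89 of 45777 genes in the table, and 12570 of those genes are typed lncRNA. The cells were YTN16, cultured mouse gastric cancer cells. The shGas6 library carried a short hairpin RNA against Gas6 (genotype given as Gas6 knockdown), and the shControl library carried a control hairpin (genotype given as WT). GAS6 is the secreted ligand of the receptor tyrosine kinase AXL and its relatives, and the series was set up around this pathway in the response to immunotherapy. Each group is 1 library of poly(A) RNA. Whether either culture was a clone or a pool of transduced cells is not stated in the sources used here.

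Some lncRNAs act in the nucleus as scaffolds, such as Neat1, which holds paraspeckles together. Others are spliced hosts whose introns carry small nucleolar RNAs (snoRNAs), the guides for chemical modification of ribosomal RNA, and their exons are commonly removed by nonsense-mediated decay. Many more lie head to head with, or antisense to, a protein-coding gene, and the lncRNA and the gene may then share a promoter region or overlap.

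The selection used the read counts of both libraries, so the levels and ratios of these lncRNAs are given as a description. With 1 library per group the differences have no replicate check, and "higher" and "lower" refer to size alone. Intervals in brackets are exact 95% Clopper-Pearson intervals from the binomial split of a gene's counts. They cover counting error only, and copies made by PCR are not independent molecules. In bulk RNA, fewer cells with a transcript and less of it per cell cannot be told apart. Of the 89 lncRNAs, 61 reached 500 counts in both libraries, 22 in shGas6 alone and 6 in shControl alone. Just inside the limit were LOC115490428 with 500 counts in shGas6 and 162 in shControl, Gt(ROSA)26Sor with 503 and 341, and LOC106557447 with 523 and 443. Just outside were D430020J02Rik with 499 counts in shGas6 and 368 in shControl, 2610035D17Rik with 483 and 240, and Snhg16 with 479 and 323.

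The libraries held 51807140 counts in shGas6 and 50756676 in shControl, and 20649 and 20327 genes were detected. Gas6 itself had 731 counts in shGas6 and 2480 in shControl, 3.45-fold lower (3.18 to 3.75). Of 15 gastric epithelial markers, 7 reached 1 CPM (counts scaled to library size by TMM), among them Krt8, Krt18, Krt19 and Cdh1, and 6 were at 0 in both libraries, including Muc5ac, Gkn1 and Atp4a. The 5 leukocyte markers together came to 0.213 CPM in shGas6 and 0.708 CPM in shControl, the 5 fibroblast markers to 2.51 and 1.44 CPM, and the 3 endothelial markers to 4.29 and 12.4 CPM, the last mostly Cdh5. Col1a2 was at 0 counts in both libraries, as were Tyrobp and Kdr. The part of these differences in the lncRNA values was not tested.

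Together the lncRNAs took 155554 counts in shGas6 and 117782 in shControl, which is 0.300% and 0.232% of all counts. They held 61.7% of the counts of all lncRNAs in shGas6 and 58.7% in shControl. Most of that difference lay in 2 of them. Neat1 made up 18.6% of the lncRNA counts described here in shGas6 and 5.04% in shControl, and Gm15564 made up 7.28% in shGas6 and 0 in shControl. Without these 2, the sums were 115334 counts in shGas6 and 111844 in shControl, or 0.223% and 0.220% of all counts. The median lncRNA had 834 counts in shGas6 and 700 in shControl.

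Ratios are log2 of the scaled count in shGas6 over that in shControl, with a pseudocount of 0.5. At least 2-fold higher in shGas6 were 13 of the 89 lncRNAs (14.6%), and 5 (5.62%) were at least 2-fold lower. Among all 10095 genes with at least 500 counts in either library the shares were 5.89% higher and 3.48% lower, and among the 9706 protein-coding ones 5.84% and 3.43%. The median log2 ratio was 0.11 over the lncRNAs and -0.01 over all 10095 genes. The quartiles of the lncRNA ratios ran from -0.21 to 0.67. The lncRNAs lay within 1.5-fold in 54 cases, and the counting interval left out a ratio of 1 in 72. The share on the higher side was less among the 61 lncRNAs that reached 500 counts in both libraries. Of these 61, 5 (8.20%) were higher and 3 (4.92%) lower. Their median log2 ratio was -0.02. Protein-coding genes with 500 counts in both libraries numbered 8987, with 3.72% higher, 1.85% lower and a median of -0.01. The 22 lncRNAs that entered through shGas6 alone had a positive ratio because of how they were selected, as the 6 that entered through shControl alone had a negative one. In the 558 lncRNAs with 50 to 499 counts in the higher library, 21.3% were higher and 12.4% lower. The median of their log2 ratios was 0.30. No share over all genes in that range of counts was computed, and fewer counts widen the counting error.

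**Figure D1:**
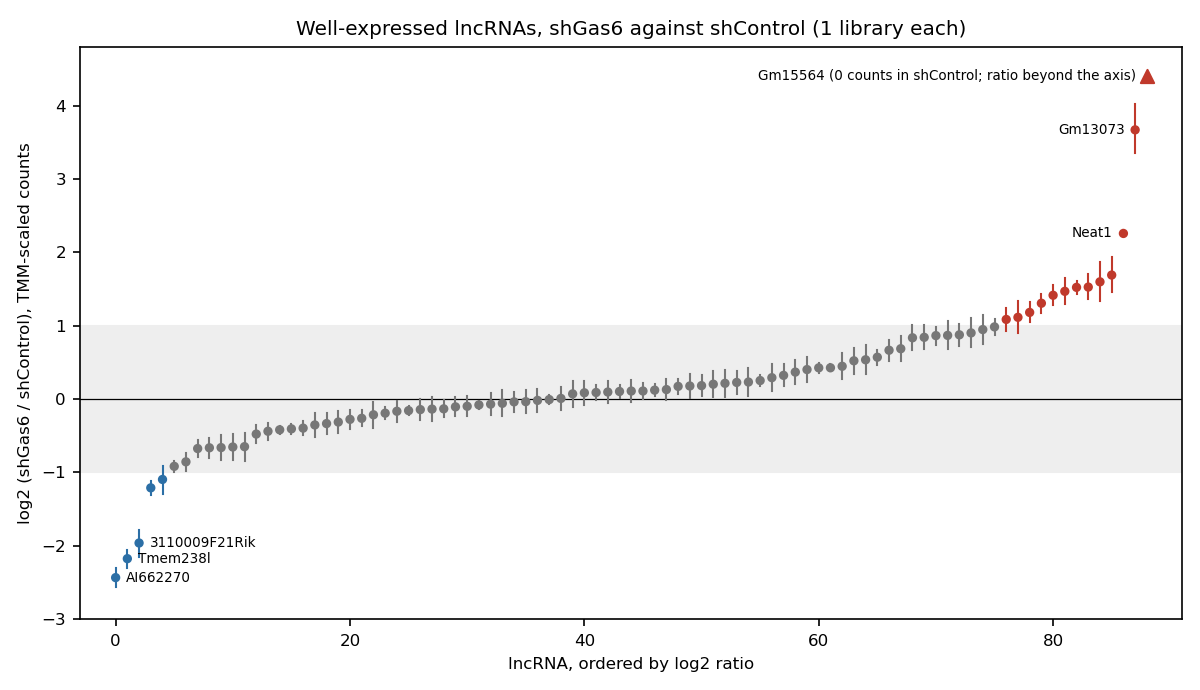
Log2 ratio (shGas6 over shControl, TMM-scaled counts) of the 89 lncRNAs in order of the ratio, with 95% counting intervals as bars and the 2-fold band in grey. The 13 lncRNAs in red are at least 2-fold higher in shGas6 and the 5 in blue at least 2-fold lower, and the triangle marks Gm15564, whose ratio has no upper end.

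**Figure D2:**
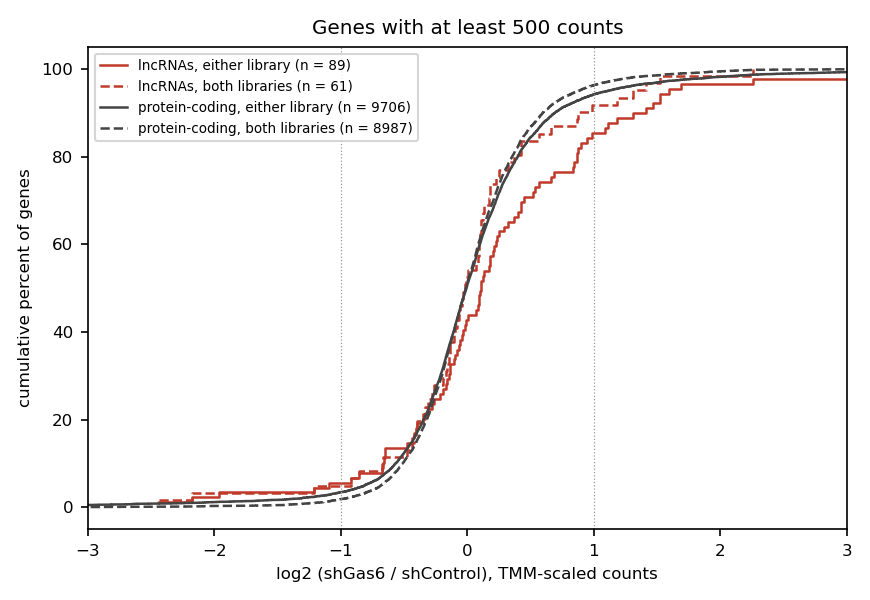
Cumulative percent of genes against the log2 ratio (shGas6 over shControl), for lncRNAs in red and protein-coding genes in grey. Solid lines take genes with at least 500 counts in either library and broken lines those with 500 in both. The solid red line runs to the right of the others on the positive side, with 14.6% of the lncRNAs past 2-fold, and the broken red line (8.20%) lies nearer to the protein-coding lines. Gm15564 and Gm13073 lie beyond the right edge.

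The snoRNA hosts form the best known family among these lncRNAs, and 13 of the 89 contain at least 1 annotated snoRNA gene on their own strand. Their starts are shown because host genes of this kind often begin with a run of pyrimidines, the 5′ terminal oligopyrimidine sequence first described for ribosomal protein mRNAs, which ties translation and decay to growth signals. Each line gives 60 bases around a start in RefSeq (GRCm38.p6), 30 on either side, 5′ to 3′, with the longest run of C and T near the start in capitals. Snhg1 lies at chr19:8723457-8723516 (plus strand), Snhg17 at chr2:158361480-158361539 (minus), Snhg5 at chr9:88522868-88522927 (minus), Snhg12 at chr4:132308648-132308707 (plus), 2410006H16Rik at chr11:62602847-62602906 (plus), Snhg8 at chr3:123508307-123508366 (minus) and Gas5 at chr1:161035136-161035195 (plus).
Snhg1: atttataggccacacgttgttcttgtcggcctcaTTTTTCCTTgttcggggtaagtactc
Snhg17: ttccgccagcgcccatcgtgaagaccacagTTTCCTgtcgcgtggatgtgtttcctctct
Snhg5: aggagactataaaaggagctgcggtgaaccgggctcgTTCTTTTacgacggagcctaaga
Snhg12: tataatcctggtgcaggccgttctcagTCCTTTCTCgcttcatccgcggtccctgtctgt
2410006H16Rik: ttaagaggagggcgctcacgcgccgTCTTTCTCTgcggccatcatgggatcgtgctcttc
Snhg8: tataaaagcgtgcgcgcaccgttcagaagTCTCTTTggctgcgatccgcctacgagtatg
Gas5: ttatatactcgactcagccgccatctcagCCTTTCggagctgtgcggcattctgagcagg

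RefSeq promoter entries exist for 12 of the 13 hosts. Within 10 bases of an annotated start, 9 of these 12 (75%) had a run of at least 6 pyrimidines, against 50% of the 74 lncRNAs with an entry and 33.5% of all 27025 genes in the table. Protein-coding genes that host snoRNAs and have at least 500 counts had such a run in 33.1% of 151 cases. This search was chosen after the values were seen. The run was present at hosts with positive ratios, such as Snhg1 and Snhg12, and at hosts with negative ratios, such as Snhg8 and Gas5. Gas5 and Snhg17 have a further annotated start without such a run.

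The hosts did not share a direction. Snhg1, a host of 8 snoRNAs, had 3813 counts in shGas6 and 1304 in shControl, or 73.7 and 25.6 CPM, and was 2.87-fold higher (2.70 to 3.06). Snhg17, a host of 3, had 1470 counts in shGas6 and 637 in shControl and was 2.27-fold higher (2.07 to 2.49). These were the 2 hosts past 2-fold, and none was past 2-fold lower. Snhg5 followed at 1936 counts in shGas6 and 962 in shControl, just under the mark at 1.98-fold (1.83 to 2.14). Snhg15 had 622 counts in shGas6 and 327 in shControl (1.87-fold, 1.63 to 2.14), and Snhg12 had 890 and 488 (1.79-fold, 1.60 to 2.01). Each of these 5 intervals lies above those of all other hosts.

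At the other end, Snhg6 had 684 counts in shGas6 and 1066 in shControl, 1.58-fold lower (1.44 to 1.75). Gas5, named for its build-up in growth-arrested cells, contains 10 annotated snoRNA genes, of which 2 share the name Snord80 and 1 is named Mir5117. It had 4253 counts in shGas6 and 5591 in shControl, 1.34-fold lower (1.28 to 1.39). Per length it was the most abundant of the 89 in shControl, at 230.2 TPM (the authors' length-scaled abundance) in shGas6 and 298.9 TPM in shControl, and ranked 6 in shGas6. Snhg8 had 551 counts in shGas6 and 692 in shControl (log2 ratio -0.35), Snhg3 had 476 and 543 (-0.21), and 1110038B12Rik had 2530 and 2842 (-0.19). The interval took in no difference for Zfas1, with 1761 counts in shGas6 and 1627 in shControl, and for AI506816, with 511 and 523. The small RNA gene inside AI506816 is annotated under the name Mir3096. The last host, 2410006H16Rik, had 3665 counts in shGas6 and 2682 in shControl, 1.34-fold higher (1.28 to 1.41). Of the 13 hosts, 7 had a ratio above 0 and 6 below, with a median log2 ratio of 0.09.

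Protein-coding snoRNA hosts with at least 500 counts numbered 188. Of these, 1 was at least 2-fold higher and 4 at least 2-fold lower, and the median of their log2 ratios was -0.08. The list of 22 lncRNA hosts chosen by name includes some with fewer counts. Snhg7 had 306 counts in shGas6 and 205 in shControl, Snhg20 had 243 and 335, Snhg4 had 238 and 421, and Dancr had 122 and 234. Over the 17 hosts of that list that reached 1 CPM, 2 were higher and 0 lower, with a median of 0.09. Over all 13367 genes at 1 CPM or more, 8.64% were higher and 6.19% lower, with a median of -0.01. The snoRNAs inside the hosts have rows of their own for 15 genes, and these summed to 209 counts in shGas6 and 370 in shControl, with no row above 36 in shGas6 or 77 in shControl. A poly(A) library is not made to capture mature snoRNAs, so their levels were not measured by these rows.

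**Figure D3:**
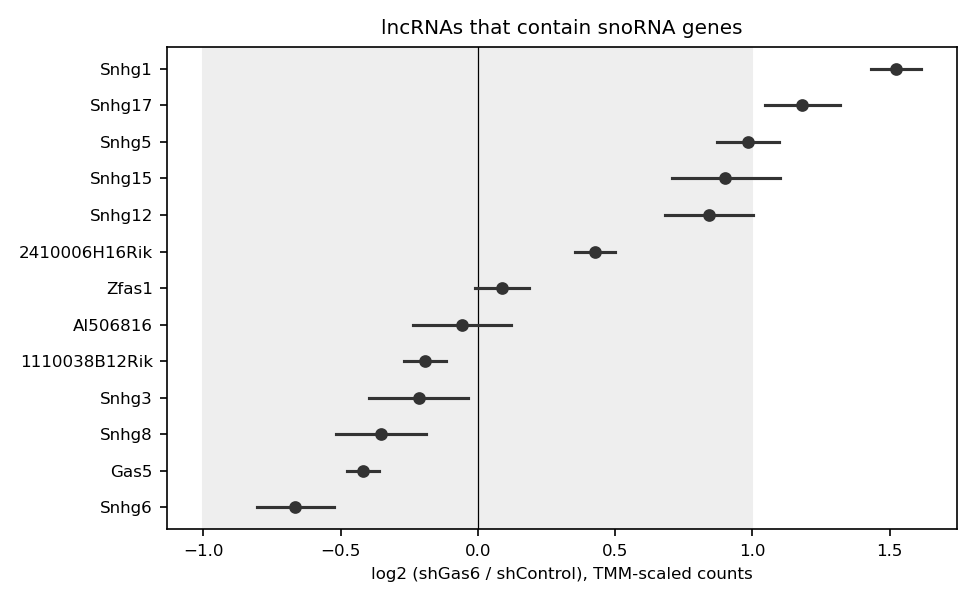
Log2 ratio (shGas6 over shControl, TMM-scaled counts) of the 13 lncRNAs that contain snoRNA genes, with 95% counting intervals as bars and the 2-fold band in grey. Snhg1 (1.52) and Snhg17 (1.18) lie past 2-fold, while Snhg6 (-0.66) and Gas5 (-0.42) lie lowest.

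The proteins that assemble on snoRNAs and those that remove their spliced hosts were read from lists chosen by function. None of the 12 snoRNP core and assembly genes was past 2-fold in either direction, and their median log2 ratio was -0.11. Dkc1, the pseudouridine synthase of the H/ACA class, lay furthest out, with 2969 counts in shGas6 and 5371 in shControl (-0.88). None of the 10 nonsense-mediated decay factors was past 2-fold, with a median of 0.16. Among them Smg9, a regulator of the SMG1 kinase, had 1897 counts in shGas6 and 981 in shControl (0.93), and the endonuclease Smg6 had 2306 and 1356 (0.74), while Upf3b had 1741 and 2615 (-0.61). The 15 genes of nuclear RNA decay had a median of -0.17 and none past 2-fold. The helicase Mtrex, which feeds nuclear RNA to the exosome, had 3092 counts in shGas6 and 5907 in shControl (-0.96).

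Neat1 and Malat1 are neighbours on chromosome 19 and are both nuclear RNAs. Neat1 (5824708 to 5845480, minus strand) scaffolds paraspeckles. It had 28894 counts in shGas6 and 5938 in shControl, or 559 and 117 CPM, the most of the 89 in shGas6; in shControl 2900097C17Rik had more. It was 4.78-fold higher (4.65 to 4.92). Per length it stood at 359 TPM in shGas6 and 71.0 TPM in shControl, ranked 2 and 11 among the 89. Its short and long isoforms share 1 row in the table and were not separated, so the level of neither is given by these counts. How well a poly(A) library captured each isoform, or Malat1, was not measured. Malat1, which gathers in nuclear speckles, had 3566 counts in shGas6 and 2943 in shControl, 1.19-fold higher (1.13 to 1.25). The nearest measured coding gene to Neat1 is Frmd8, with 2502 counts in shGas6 and 2182 in shControl (log2 ratio 0.17).

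None of the 13 paraspeckle protein genes was past 2-fold, and their median log2 ratio was -0.14. Nudt21, a cleavage factor subunit that acts on the choice of Neat1 isoform, had 3547 counts in shGas6 and 4790 in shControl (-0.46). The core paraspeckle proteins Sfpq and Pspc1 had 7475 counts in shGas6 and 9178 in shControl (-0.32), and 1901 and 2330 (-0.32). Firre, an X-linked nuclear RNA, had 895 counts in shGas6 and 942 in shControl, with an interval that took in no difference. Xist had 0 counts in shGas6 and 3 in shControl, and Tsix had 0 in both. The 7 genes for proteins that act with Xist, among them Spen and Hnrnpu, included none past 2-fold. Over the 6 nuclear architecture lncRNAs at 1 CPM or more, 1 (Neat1) was higher and none lower, with a median of 0.19.

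The highest ratio was that of a predicted gene. Gm15564 (chromosome 16, 35966751 to 35983329, minus strand) had 11326 counts in shGas6 and 0 in shControl, or 219 CPM and 0. With a floor of 3 counts put in for the 0 in shControl, the ratio was 3711-fold. The lower end of its 95% counting interval was 3018-fold. At 327 TPM in shGas6 it ranked 3 there. It overlaps the coding genes Kpna1 and Parp9 on the other strand. Kpna1, a nuclear import receptor, had 4587 counts in shGas6 and 4322 in shControl (log2 ratio 0.06), and Parp9, an interferon-inducible member of the PARP family, had 4133 and 3835 (0.08). The strand setting of the counting is not given, and where the reads of Gm15564 fall within the locus cannot be seen in a gene-level table. Another predicted transcript, AY036118, had 68 counts in shGas6 and 0 in shControl; it was singled out after its values were seen.

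Gm13073 (chromosome 4, 149778380 to 149780937, minus strand) had 1068 counts in shGas6 and 82 in shControl, or 20.6 and 1.61 CPM, and was 12.8-fold higher (10.2 to 16.2). The mitochondrial pyrimidine nucleotide carrier gene Slc25a33 lies 4.11 kb away and had 2306 counts in shGas6 and 917 in shControl, 2.47-fold higher (2.29 to 2.67). Lncenc1, known from naive mouse embryonic stem cells, had 648 counts in shGas6 and 197 in shControl, 3.23-fold higher (2.75 to 3.81). 5430416N02Rik had 1112 counts in shGas6 and 379 in shControl, 2.88-fold higher (2.56 to 3.25), while Sec31a, 4.57 kb away, had 23171 and 19425 (log2 ratio 0.23). Gm30262 had 992 counts in shGas6 and 352 in shControl, 2.77-fold higher (2.45 to 3.14). Its nearest measured coding gene, Phlda1 at 74.4 kb, had 20057 counts in shGas6 and 9521 in shControl, 2.07-fold higher (2.02 to 2.12). The remaining intergenic one, 2700054A10Rik, had 538 counts in shGas6 and 244 in shControl, 2.17-fold higher (1.86 to 2.53), an interval that reaches below 2.

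The 5 lncRNAs on the lower side were intergenic except for the last. AI662270 (chromosome 11, 83223576 to 83226584, plus strand) lies beside Schlafen genes and had 556 counts in shGas6 and 2957 in shControl, or 10.8 and 58.2 CPM, 5.41-fold lower (4.94 to 5.93). Slfn3, 8.42 kb away, had 58 counts in shGas6 and 144 in shControl, 2.53-fold lower (1.85 to 3.49), and Slfn4 was at 13.1 CPM in shGas6 and 19.3 CPM in shControl (log2 ratio -0.56). Tmem238l had 653 counts in shGas6 and 2903 in shControl, 4.52-fold lower (4.15 to 4.93), and GENCODE types it as protein-coding. Its nearest measured coding gene, Pirt, had 0 counts in shGas6 and 97 in shControl.

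3110009F21Rik had 305 counts in shGas6 and 1170 in shControl, 3.90-fold lower (3.44 to 4.44), and its nearest measured coding gene, Ppp2r5c at 289 kb, had 8190 and 9402 (log2 ratio -0.22). Gm20559 (chromosome 6, 3330738 to 3346141, minus strand) had 1317 counts in shGas6 and 2997 in shControl, 2.31-fold lower (2.17 to 2.47). The interferon-inducible antiviral gene Samd9l, 26.1 kb away, had 8636 counts in shGas6 and 18135 in shControl, 2.14-fold lower (2.08 to 2.19). B130055M24Rik had 339 counts in shGas6 and 713 in shControl, 2.14-fold lower (1.88 to 2.44), an interval that reaches below 2. It starts head to head with Zfp689, with 287 counts in shGas6 and 242 in shControl, and overlaps Prr14, with 2905 and 2463, with point ratios of 1.17 and 1.16. The whole counting interval lay beyond 2-fold for 11 of the 13 higher lncRNAs and 4 of the 5 lower ones.

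**Figure D4:**
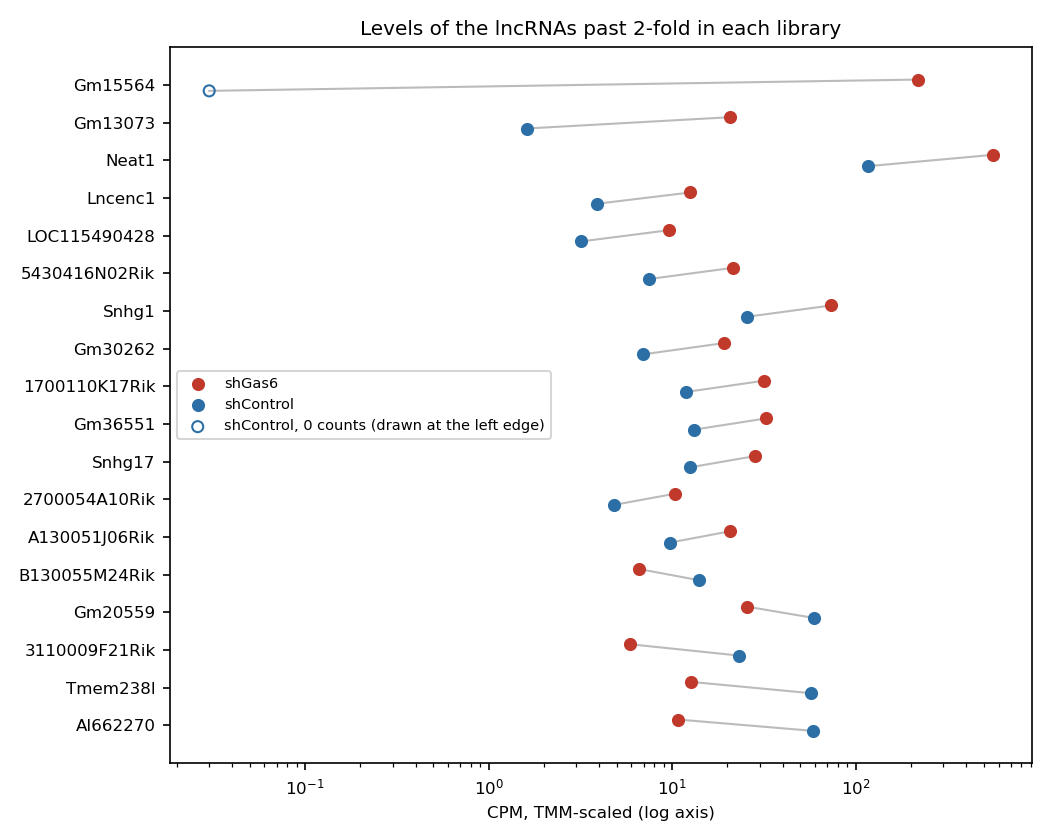
Level in CPM (TMM-scaled, log axis) of the 18 lncRNAs past 2-fold, with shGas6 as the upper red point and shControl as the lower blue point of each row. Gm15564 has no shControl counts and its open circle stands at the left edge. Neat1 is at 559 CPM in shGas6 and 117 CPM in shControl, and AI662270 at 10.8 and 58.2 CPM.

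Of the 18 lncRNAs past 2-fold, 6 had a nearest measured coding gene that was past 2-fold the same way, 11 had one within 2-fold, and Snhg17 had one past 2-fold the other way. This last gene was Lbp, the lipopolysaccharide-binding protein, 20.8 kb away, with 16440 counts in shGas6 and 35069 in shControl, 2.17-fold lower (2.13 to 2.21). Over all 89, the nearest coding gene had a ratio on the same side of 0 in 59 cases and on the other side in 30. No such share was computed for other genes. The side of 0 was fixed by the selection for the 22 lncRNAs that entered through shGas6 alone and the 6 through shControl alone. Some nearest genes overlap the lncRNA, and reads of such pairs cannot be told apart. With the median log2 ratio of the 50 nearest coding genes subtracted, a step added after the data were seen, 12 lncRNAs were at least 2-fold higher and 5 lower. These local medians ran from -0.47 to 0.47.

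Snhg1 and Slc3a2 start 0.118 kb apart on opposite strands. Slc3a2 encodes the heavy chain shared by several amino acid transporters, and had 20311 counts in shGas6 and 9859 in shControl, 2.03-fold higher (1.98 to 2.08; the log2 ratio was 0.98 with upper-quartile scaling). They were the only pair of 23 head-to-head pairs in which both were past 2-fold at the main scaling. The promoter of Snhg1 is therefore shown, and those of Gm13073 and Gm20559 as examples near a coding gene past 2-fold the same way. Each is 300 bases from RefSeq (GRCm38.p6), 250 before and 50 from the start, read along the strand of the lncRNA. Capitals mark matches on either strand to the motifs searched. In Snhg1 these are GGGCGG and, on the other strand, the TATA box TATAAA. In Gm13073 they are TATAAA and, on the other strand, the interferon-type core GAAANNGAA. In Gm20559 they are CCAAT, then TATAAA, both on the other strand, then the GAAANNGAA core. AI662270, Tmem238l and Gm30262 also had a nearest coding gene past 2-fold the same way, and are not printed. AI662270 has no promoter entry, and the windows of Tmem238l and Gm30262 held no GAAANNGAA match. Snhg1 is chr19:8723237-8723536 (plus), Gm13073 is chr4:149780888-149781187 (minus) and Gm20559 is chr6:3346089-3346388 (minus).
Snhg1: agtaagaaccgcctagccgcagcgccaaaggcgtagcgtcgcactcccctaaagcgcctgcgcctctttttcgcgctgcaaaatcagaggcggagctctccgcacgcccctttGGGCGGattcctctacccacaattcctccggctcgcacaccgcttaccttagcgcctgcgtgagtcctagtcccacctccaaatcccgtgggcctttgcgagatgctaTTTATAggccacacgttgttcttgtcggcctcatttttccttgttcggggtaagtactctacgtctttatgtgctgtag
Gm13073: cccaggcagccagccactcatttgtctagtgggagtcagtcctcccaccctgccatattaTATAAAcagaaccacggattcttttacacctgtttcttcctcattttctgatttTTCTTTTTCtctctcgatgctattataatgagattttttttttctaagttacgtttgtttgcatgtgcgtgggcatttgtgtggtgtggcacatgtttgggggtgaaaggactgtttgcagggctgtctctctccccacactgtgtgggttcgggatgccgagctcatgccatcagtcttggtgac
Gm20559: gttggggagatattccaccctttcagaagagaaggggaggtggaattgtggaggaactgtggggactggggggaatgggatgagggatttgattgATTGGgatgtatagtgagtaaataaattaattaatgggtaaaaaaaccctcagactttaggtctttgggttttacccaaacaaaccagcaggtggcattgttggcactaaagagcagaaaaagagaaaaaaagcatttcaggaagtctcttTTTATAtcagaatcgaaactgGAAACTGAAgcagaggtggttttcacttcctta

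Promoter windows were found for 74 of the 89 lncRNAs, and a gene was counted once for a motif if any of its windows held it on either strand. The TATA box was searched as TATAAA, the GC box as GGGCGG and the E-box as CACGTG. The cAMP response element was written TGACGTCA, the AP-1 site TGAGTCA and the amino acid response type element TGATGNAA. The other motifs were CCAAT and, for interferon-type elements, GAAANNGAA. None of these motifs contains another, and a match is not evidence of binding. GGGCGG was in 10 of the 12 snoRNA hosts with an entry, in 45.9% of the 74 lncRNAs and in 38.2% of all 27025 genes, many of which are not expressed here. TATAAA was in 5 of the 12 hosts, in 16.2% of the 74 and in 15.7% of all genes. GAAANNGAA was in 13.5% of the 74 and in 9.76% of all genes. It was in 5 of the 12 higher lncRNAs with an entry and in 1 of the 4 lower ones, Gm20559. The 12 higher lncRNAs had 24 windows and the 4 lower ones 9, while the 74 had 100 and all 27025 genes 32851. The higher and lower lncRNAs thus had more windows per gene in which a match could fall. TGATGNAA was in 4.05% of the 74 and 4.51% of all genes, and in none of the 12 higher lncRNAs. CACGTG was in 5.41% and 8.09%, TGACGTCA in 4.05% and 2.03%, TGAGTCA in 8.11% and 5.95%, and CCAAT in 44.6% and 41.1%.

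By position, 22 lncRNAs overlap a coding gene on the other strand, 23 start head to head with one within 1 kb, 9 overlap one on the same strand, and 45 do none of these. A lncRNA can be in more than 1 of these classes. The antisense class held 5 of the higher lncRNAs and none of the lower ones, and 17 of its 22 ratios were above 0, with a median log2 ratio of 0.26. Of these 22, 7 reached 500 counts in shGas6 alone, so their positive ratios, 3 of the higher ones included, follow from the selection. Among the 15 with 500 counts in both libraries, 2 were higher and none lower, 10 ratios were above 0 and the median was 0.11, beside the -0.01 given above for the 8987 genes that reached 500 counts in both. Head-to-head lncRNAs included 1 higher and 1 lower, with a median of -0.13. The intergenic class had 7 higher and 4 lower and a median of 0.01. The same-strand class had 0 higher and 1 lower and a median of 0.10.

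Besides Gm15564, the higher antisense lncRNAs each overlap 1 coding gene. LOC115490428, with 500 counts in shGas6 and 162 in shControl, was 3.03-fold higher (2.54 to 3.64), while the calcium channel gene Itpr1 had 1217 and 1186 (log2 ratio 0.01). 1700110K17Rik had 1634 counts in shGas6 and 602 in shControl, 2.67-fold higher (2.43 to 2.93), over Gramd1b, a sterol transfer protein gene with 5490 and 3186 (0.76). Gm36551 had 1684 counts in shGas6 and 669 in shControl, 2.47-fold higher (2.26 to 2.71), while Pilrb1, a paired immunoglobulin-like receptor gene, had 1621 and 1897 (-0.25). A130051J06Rik had 1067 counts in shGas6 and 494 in shControl, 2.12-fold higher (1.91 to 2.37), over the scramblase gene Ano6 with 22096 and 13656 (0.67). The lncRNA and the coding gene thus stood on opposite sides of 0 in the case of Gm36551 alone among these. Since the strand setting is unknown, reads of overlapping partners cannot be told apart.

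Some antisense and head-to-head lncRNAs lay within 1.5-fold beside a coding gene with a larger ratio. These pairs, and that of 4933431E20Rik at the end, were singled out after their values were seen. Of these lncRNAs, only Gm39584 had a counting interval that took in no difference. Gm13415 had 533 counts in shGas6 and 428 in shControl, while Pax8, a paired-box transcription factor gene that spans it, had 585 and 89, 6.46-fold higher (5.16 to 8.17). Gm39584 had 562 counts in shGas6 and 526 in shControl, while Egfr had 3822 and 2013, 1.87-fold higher (1.77 to 1.97). 9930014A18Rik had 718 counts in shGas6 and 547 in shControl, while Lratd2 had 47193 and 21320, 2.18-fold higher (2.14 to 2.21). Gm20544 had 905 counts in shGas6 and 1078 in shControl, and Smad7, the inhibitory SMAD gene that it starts head to head with, had 3047 and 1408, with a log2 ratio of 1.09. By contrast, 4933431E20Rik lay beyond 1.5-fold. It had 808 counts in shGas6 and 1438 in shControl, 1.81-fold lower (1.66 to 1.98). Its head-to-head neighbour Gstm5, a glutathione transferase gene, had 1037 counts in shGas6 and 1932 in shControl (log2 ratio -0.92), and Eps8l3, which it overlaps, had 7332 and 2714, 2.66-fold higher (2.54 to 2.78). Among pairs with a coding gene at 1 CPM or more, both were on the same side of 0 in 17 of 21 antisense pairs. The same held for 13 of 23 head-to-head pairs and 5 of 9 same-strand pairs. The 21 antisense pairs came from 19 lncRNAs, and no such share was computed for other gene pairs. The side of 0 was fixed by the selection for lncRNAs that entered through 1 library alone, 7 of the 22 antisense ones included.

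**Figure D5:**
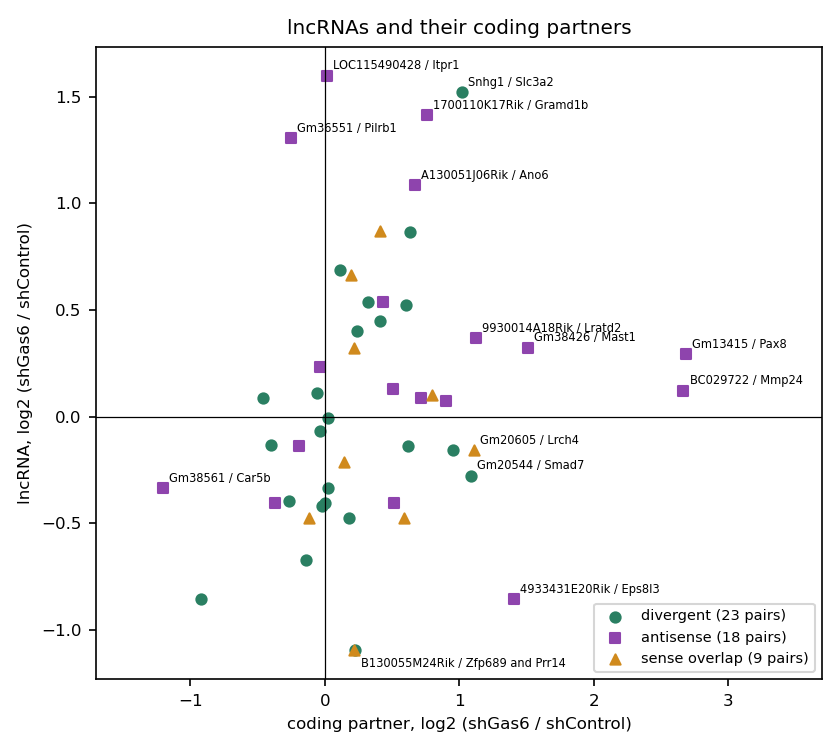
Log2 ratio (shGas6 over shControl) of each lncRNA against that of the coding gene it starts head to head with or overlaps. Names mark pairs in which either is past 2-fold. Pairs with Gm15564 and the pair of Snhg6 with Mcmdc2 are left out because 1 library is at 0. Snhg1 and Slc3a2 (1.52 and 1.02) stand at the upper right of the head-to-head pairs, and Pax8 and Mmp24 lie far to the right of lncRNAs near 0.

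Several lncRNAs had nearly the same level in both libraries. 2900097C17Rik, the mouse Norad, is known from human cells for its part in keeping chromosomes stable. It had 6369 counts in shGas6 and 6617 in shControl, 1.06-fold lower (1.02 to 1.09). A stretch of 2537 bases, 51.6% of its GENCODE transcript, is 99.2% identical to Gm7292, so reads may be split between the 2 genes. Tug1, needed for male fertility in mice, had 5218 counts in shGas6 and 5155 in shControl, and its head-to-head partner Morc2a had 4658 and 4508. Oip5os1, also called Cyrano, which directs the decay of miR-7, had 946 counts in shGas6 and 1001 in shControl. Lockd, transcribed downstream of Cdkn1b, had 660 counts in shGas6 and 665 in shControl. The intervals of Tug1, Oip5os1 and Lockd took in no difference.

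4930461G14Rik was the most abundant per length in shGas6, at 385 TPM in shGas6 and 277 TPM in shControl. It had 7578 counts in shGas6 and 5543 in shControl and was 1.34-fold higher (1.30 to 1.39). Brip1os, head to head with the helicase gene Brip1, had 3362 counts in shGas6 and 4380 in shControl (log2 ratio -0.41), while Brip1 had 1448 and 1422 (0.00). Gm41032 had 2390 counts in shGas6 and 4438 in shControl, 1.89-fold lower (1.80 to 1.99), the lowest ratio within the 2-fold band. Gm20605 had 4400 counts in shGas6 and 4824 in shControl, while Lrch4, which it overlaps on the same strand, had 1349 and 614, 2.16-fold higher (1.96 to 2.38). Peg13, an imprinted transcript inside Trappc9, had 1046 counts in shGas6 and 648 in shControl, 1.59-fold higher (1.44 to 1.75), and Trappc9 had 2382 and 2048 (0.19). The imprinted H19 and Mirg were at 0 in both libraries, and Meg3 had 0 counts in shGas6 and 6 in shControl. Of the 3 imprinted lncRNAs at 1 CPM or more, Airn, named after its value was seen, was the 1 past 2-fold, with 73 counts in shGas6 and 32 in shControl. Among 9 growth and stress lncRNAs at 1 CPM or more, 1 was past 2-fold, Hotairm1 (also named after its value was seen), with 344 counts in shGas6 and 151 in shControl, and the median log2 ratio was 0.17.

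MicroRNA genes lie inside 3 of the lncRNAs, and none of these hosts was past 2-fold. Mir100hg, which holds the genes of miR-100, let-7a-2 and miR-125b-1, had 1237 counts in shGas6 and 1459 in shControl (log2 ratio -0.26). LOC106557447, which holds Mir31, had 523 counts in shGas6 and 443 in shControl (0.21), and Gm11613 had 650 and 647 (-0.02). Mature microRNAs were not measured. Over the 4 listed microRNA hosts at 1 CPM or more, none was past 2-fold and the median was -0.23. Of the 11 microRNA processing genes none was past 2-fold, and the largest ratio was that of the Argonaute gene Ago2, with 6361 counts in shGas6 and 3636 in shControl (0.78).

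The lncRNA type is the one given in the deposited table. GENCODE types 7 of the 89 as protein-coding, namely Tmem238l, Gm20716, Gm20605, 0610012G03Rik, Mtln, BC029722 and A930004D18Rik. Mtln encodes mitoregulin, a small mitochondrial protein, and had 657 counts in shGas6 and 642 in shControl. Of these 7, 1 (Tmem238l) was past 2-fold lower and none higher, and of the other 82, 13 were higher and 4 lower. Among the 74 lncRNAs with a GENCODE transcript, 7 had a stretch of at least 100 bases with at least 98% identity to another gene, and in 1 of them, 2900097C17Rik, it covered over 50% of the transcript.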

How the data were processed

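The deposited table lists 45777 genes. According to its header, the authors deposited 3 values per gene and library, a raw count of reads, FPKM and TPM. The deposited counts were the basis of all ratios. The deposited TPM gave levels per length, and TPM and the deposited FPKM served as alternatives. Per the submitters' processing notes, reads were trimmed with Trimmomatic and the build was GRCm38 (mm10). Per the labels' protocols, the kit was a stranded one for mRNA. The aligner, counting tool, strand setting and gene annotation used are not given in the sources. How overlapping and antisense genes shared reads is therefore unknown.

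Both columns were assigned to samples by name. TMM factors from edgeR 4.0.16 (R 4.3.3) set the scale, and folds are of scaled counts, with intervals from scipy 1.17.1. No test was possible with 1 library per group, so a size mark of 2-fold was used. The floor of 3 counts equals 0.0580 CPM in shGas6 and 0.0590 CPM in shControl. The calculations were run on simulated counts that varied by counting error alone. Variation between cultures and copies made by PCR were not part of that check. Coordinates came from RefSeq by gene identifier, strands from RefSeq or GENCODE M21 (88 of 89; Gm9926 has none), and near-identical stretches from BLAST 2.17.0. The rule for names took Gas6, all lncRNAs past 2-fold, the 10 with the most counts, those in the lncRNA lists, the 3 on either side of the limit, coding partners and nearest neighbours, and up to 4 genes per protein list, of which 1 list is not reported here; other genes named, such as Slfn4, Lockd, Mtln and listed lncRNAs under the limit, were chosen after their values were seen. The lncRNAs and lists were chosen with earlier results of these data known. Alternatives were total-count, upper-quartile and DESeq2 1.42.0 scaling, a pseudocount of 5, TPM and FPKM, other count limits, other fold marks and the counting interval.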

Additional observations from a re-analysis of the deposited data

How the results depend on the processing

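The 13 higher and 5 lower lncRNAs became 23 and 12 at a 1.5-fold mark and 3 and 2 at a 4-fold mark. With a limit of 200 counts, 39 of 233 lncRNAs were higher and 22 lower, and with 1 count 1166 of 3462 were higher and 870 lower. Fewer counts per gene widen the counting error of a ratio, and the shares over all genes at these limits were not computed. Under the other scalings, a pseudocount of 5, TPM, FPKM, limits of 1000 counts or of a mean of 500, the counting interval and the 2 alternatives added after the data were seen (without the lncRNAs that GENCODE types as protein-coding, and with the local median subtracted), the count ranged from 9 to 14 higher and from 4 to 5 lower. The median stayed between 0.07 and 0.14 in these. The ratio for TPM lay on the other side of 0 for 6 lncRNAs close to level, among them Tug1 and Lockd. Of 678 values for 113 named genes under other settings, 640 stayed within the counting interval, 38 moved beyond it, 29 of them with TPM or FPKM, and 0 called values changed sign. No paired analysis was possible because each group has 1 library.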
